A study of Mus musculus with 1677 samples.

Results

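The 34 genes described here are the digestive enzymes, granule proteins and transcription regulators of the pancreatic acinar cell. They were taken by symbol from a table of 24537 gene rows, and all 34 have a row in it. Wild-type C57BL/6J mice were bought at 10 weeks of age, kept on chow for 2 weeks and then given a Western diet (45% fat, 17% sucrose) for 7 weeks under 12 h of light a day. One group ate the diet whenever it chose (ad-libitum feeding, ALF). The other group had the same diet for 9 h a day only, from 13 to 22 h after lights on (time-restricted feeding, TRF). Hours after lights on are written ZT, and tissues were collected at 12 clock times, every 2 h from ZT0 to ZT22. The pancreas gave 24 ALF and 22 TRF libraries, 2 per group and clock time except at ZT14 and ZT16, where TRF has 1. The other 21 tissues gave 989 libraries. No group was on chow at collection, so no comparison here is one of the Western diet against chow. The labels do not say whether the libraries of 1 group and time came from separate mice, so p-values measure the spread of libraries around each fitted model.

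The acinar cell makes most of the protein that the pancreas secretes. It stores inactive proteases, lipases, amylase and ribonuclease in zymogen granules and releases them into the duct when a meal raises cholecystokinin and vagal acetylcholine. Transcription of the enzyme genes depends on the PTF1 complex, in which the acinar factor PTF1A, with a common basic helix-loop-helix partner, binds an E-box and RBPJL binds a box beside it. MIST1, the product of Bhlha15, organises the secretory apparatus, and NR5A2 supports the enzyme programme.

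The promoters show which members carry the letters of those 2 sites next to their start. RefSeq promoter windows of GRCm38.p6 matched 28 of the 34 members, with 29 windows since Nr5a2 has 2. In the 250 bases before the start, read on both strands, CACCTG (the E-box) was in 17 of 29 member windows, or 58.6%, against 17.2% of all 32851 windows of the same length. TTCCCA (the RBPJ box) was in 15 of 29, or 51.7%, against 21.6% of all windows. Both were in 24.1% of member windows against 3.91% of all, and both within 30 bases of each other in Cel, Rbpjl and Prss1, or 10.3% against 1.08%. A match is a description of letters, not a bound site. The 6 windows below are those of the 3 genes with both boxes close together, of Prss2 and Sycn, 2 of the genes that fell most under TRF, and of Try4, another trypsinogen gene of the same chromosome that did not pass the test. Capitals mark either box, on either strand.
Cel, chr2:28563404-28563653, minus strand: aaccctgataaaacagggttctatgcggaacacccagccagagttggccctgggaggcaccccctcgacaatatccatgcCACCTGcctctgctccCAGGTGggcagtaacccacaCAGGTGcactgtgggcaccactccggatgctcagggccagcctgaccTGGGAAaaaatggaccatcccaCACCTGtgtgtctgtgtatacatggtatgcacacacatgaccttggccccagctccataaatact
Rbpjl, chr2:164402944-164403193, plus strand: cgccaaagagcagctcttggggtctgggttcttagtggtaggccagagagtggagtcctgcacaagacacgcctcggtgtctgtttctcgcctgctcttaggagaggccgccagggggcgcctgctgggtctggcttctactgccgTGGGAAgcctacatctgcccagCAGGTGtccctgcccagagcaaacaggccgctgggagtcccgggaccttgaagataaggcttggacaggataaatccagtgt
Prss1, chr6:41458680-41458929, plus strand: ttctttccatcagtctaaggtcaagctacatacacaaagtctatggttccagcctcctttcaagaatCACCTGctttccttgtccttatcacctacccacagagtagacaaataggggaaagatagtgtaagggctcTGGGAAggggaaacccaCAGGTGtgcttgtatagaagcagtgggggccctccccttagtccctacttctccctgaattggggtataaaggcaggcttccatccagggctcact
Prss2, chr6:41521526-41521775, plus strand: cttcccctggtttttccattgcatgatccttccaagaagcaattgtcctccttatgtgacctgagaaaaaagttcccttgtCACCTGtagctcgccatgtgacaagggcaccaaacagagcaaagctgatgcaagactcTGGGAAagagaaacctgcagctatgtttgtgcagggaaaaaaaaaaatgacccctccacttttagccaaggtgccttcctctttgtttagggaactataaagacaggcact
Try4, chr6:41302022-41302271, plus strand: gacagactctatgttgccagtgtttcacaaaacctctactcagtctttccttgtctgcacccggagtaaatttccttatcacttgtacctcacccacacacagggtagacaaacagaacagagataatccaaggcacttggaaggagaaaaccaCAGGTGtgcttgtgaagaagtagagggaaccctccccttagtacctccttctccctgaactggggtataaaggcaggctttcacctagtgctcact
Sycn, chr7:28540635-28540884, plus strand: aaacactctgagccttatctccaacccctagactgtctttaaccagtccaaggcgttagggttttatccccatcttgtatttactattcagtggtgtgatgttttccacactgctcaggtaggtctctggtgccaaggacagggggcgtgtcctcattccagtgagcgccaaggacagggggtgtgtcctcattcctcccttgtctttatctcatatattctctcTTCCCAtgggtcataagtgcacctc
Prss2 and Prss1 hold both boxes, Try4 holds the E-box alone and Sycn the RBPJ box alone. Among the 8 members that fell under TRF (below), 7 have a window, of which 5 hold CACCTG and 4 TTCCCA. Among the 26 that did not pass, 21 have a window, of which 12 hold CACCTG and 11 TTCCCA.

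In the pancreas the 34 genes made up 27.2% to 77.6% of all counts of a library. Library totals ran from 3864299 to 9088404 counts. Ctrb1, a chymotrypsinogen, gave 12.6% of the members' counts, followed by the elastase gene Cela2a with 10.7% and Cela1 with 9.82%. Levels are given as CPM, counts scaled to an equal total for every library. Per length, as CPM per kilobase of exon (CPM per kb), Ctrb1 also had the highest mean over the 46 libraries, 80010, ahead of Prss2 with 39594, colipase (Clps) with 35915 and Cela2a with 34571. The regulators lay far lower: Rbpjl had 192, Bhlha15 91.4, Ptf1a 27.3 and Nr5a2 3.21 CPM per kb. The order within the enzymes is close, since Pnlip (21318) and Try4 (19796) or Ctrl (19425) and Rnase1 (19336) differ by far less than their spread between libraries.

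Some rows do not measure 1 gene cleanly. Of the 50-base stretches of Prss3, 66.1% also occur in transcripts of other genes, as do 65.6% of Try4, 54.9% of Prss1, 53.5% of Amy2a5, 47.6% of Try5 and 40.2% of Amy2b, against 7.83% of Prss2. The row Amy2a5, named for pancreatic amylase, held a mean of 9.72 CPM, and Amy2b, which the mouse annotation GENCODE vM21 lists as an unprocessed pseudogene, held 1350 CPM. The gene model of Ctrc (chr4:141814962-141846359) contains that of Cela2a (chr4:141814962-141826160) on the same strand. Values of these rows are therefore uncertain, and amylase RNA as a whole is not described here.

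The share of counts held by the members was lower in TRF than in ALF at each of the 12 clock times. In ALF it was 60.1% ± 15.1 (SD, n = 24), with a lowest library at 30.3%, a median of 67.2% and a highest at 77.6%. In TRF it was 51.1% ± 13.2 (SD, n = 22), with a lowest library at 27.2%, a median of 47.7% and a highest at 73.9%. The groups overlap over nearly their whole range. In bulk tissue, fewer acinar cells and less enzyme RNA per cell cannot be told apart.

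**Figure D1:**
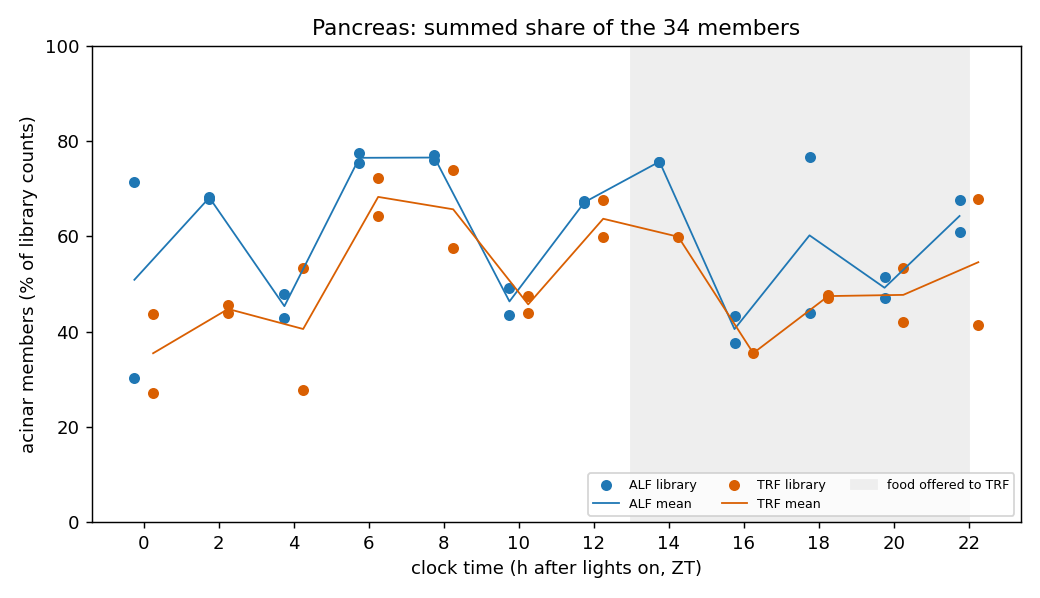
Share of all counts of a pancreas library held by the 34 members (y axis, percent) against clock time (x axis, hours after lights on), with 1 point per library, lines through the mean of each time, and the hours of food for TRF shaded. The TRF mean lies below the ALF mean at all 12 times, and the ALF mean drops below 50% at ZT4, ZT10, ZT16 and ZT20.

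The share moved in steps from one clock time to the next, in both groups. At ZT6 the ALF mean was 76.5% and the TRF mean 68.3%, and at ZT4, 2 h earlier, they were 45.4% and 40.6%. At ZT14 they were 75.7% and 59.9%, and at ZT16 they were 40.6% and 35.5%. ALF libraries of 1 time were mostly close, with the pair at ZT14 at 75.7% and 75.7%, but the ALF pairs at ZT0 (71.5% and 30.3%) and at ZT18 (76.6% and 43.9%) were far apart. TRF pairs were wide as well at ZT4 (53.3% and 27.9%) and ZT22 (67.9% and 41.3%). Rn45s, the ribosomal precursor RNA, also moved between clock times: its ALF mean was 2532 CPM at ZT8, where the members' share was 76.6%, 30576 CPM at ZT16 with a share of 40.6%, and 14563 CPM at ZT12 with a share of 67.2%. The TRF mean of Rn45s was below the ALF mean at ZT4, ZT12 and ZT20 and above it at all other times. It was 39141 CPM in TRF against 15656 in ALF at ZT0, and 11516 against 2532 at ZT8. At ZT20 it was 10274 CPM in TRF against 46504 in ALF. Without Rn45s and the mitochondrial genes in the total, the shares were 60.9% in ALF and 51.9% in TRF. The part of Rn45s in the changes between times, or in the difference between the feeding groups, was not tested. Clock time and the day or handling of a collection cannot be told apart here.

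Over the day, 8 of the 34 members were lower in TRF than in ALF and 0 were higher. The test was edgeR's quasi-likelihood test with clock time in the model, on counts scaled by TMM (a scaling that sets the median change of all genes near 0), with Benjamini-Hochberg adjustment over all 12574 genes tested and a threshold of 0.05. The share of all tested genes called lower was 4.68%, and 8.10% were called in either direction, against 23.5% of the members. The median log2 change of the members was -0.69, against -0.00 over all genes tested, and 32 of 34 had a negative change. These 34 changes come from the same libraries and are not separate results. With library totals in place of TMM, the median of all genes moved to 0.46 and that of the members to -0.14. The members' median then lay 0.60 below that of all genes, in place of 0.69, and 9 members were called lower and 5 higher. Of the 8 members, 7 were still called lower. Without ZT0 and ZT18, the times at which ALF pairs were far apart, 2 of these 8 members were still called, Sycn and Clps, with a members' median of -0.47.

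The number of members past the threshold hung on single libraries and times, with 0 members called higher in each of these fits. It was 4 or 5 without ALF ZT0 replicate 1, TRF ZT0 replicate 1, TRF ZT8 replicate 2, the TRF library at ZT14, ALF ZT18 replicate 1 or TRF ZT18 replicate 1. It was 13 to 19 without ALF ZT0 replicate 2, TRF ZT4 replicate 1, ALF ZT10 replicate 1, ALF ZT16 replicate 1, ALF ZT18 replicate 2, ALF ZT20 replicate 2, TRF ZT20 replicate 1, ALF ZT22 replicate 2 or TRF ZT22 replicate 1. Without ZT0, ZT2, ZT6, ZT8, ZT14 or ZT18 it was 3 to 5, and Sycn and Clps passed whichever clock time or library was left out. With the libraries of 1 replicate number alone, 0 members passed (edgeR), and DESeq2 on all libraries called 9 members lower, among them Clps, Pnliprp2, Sycn and Serpini2 of these 8.

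**Figure D2:**
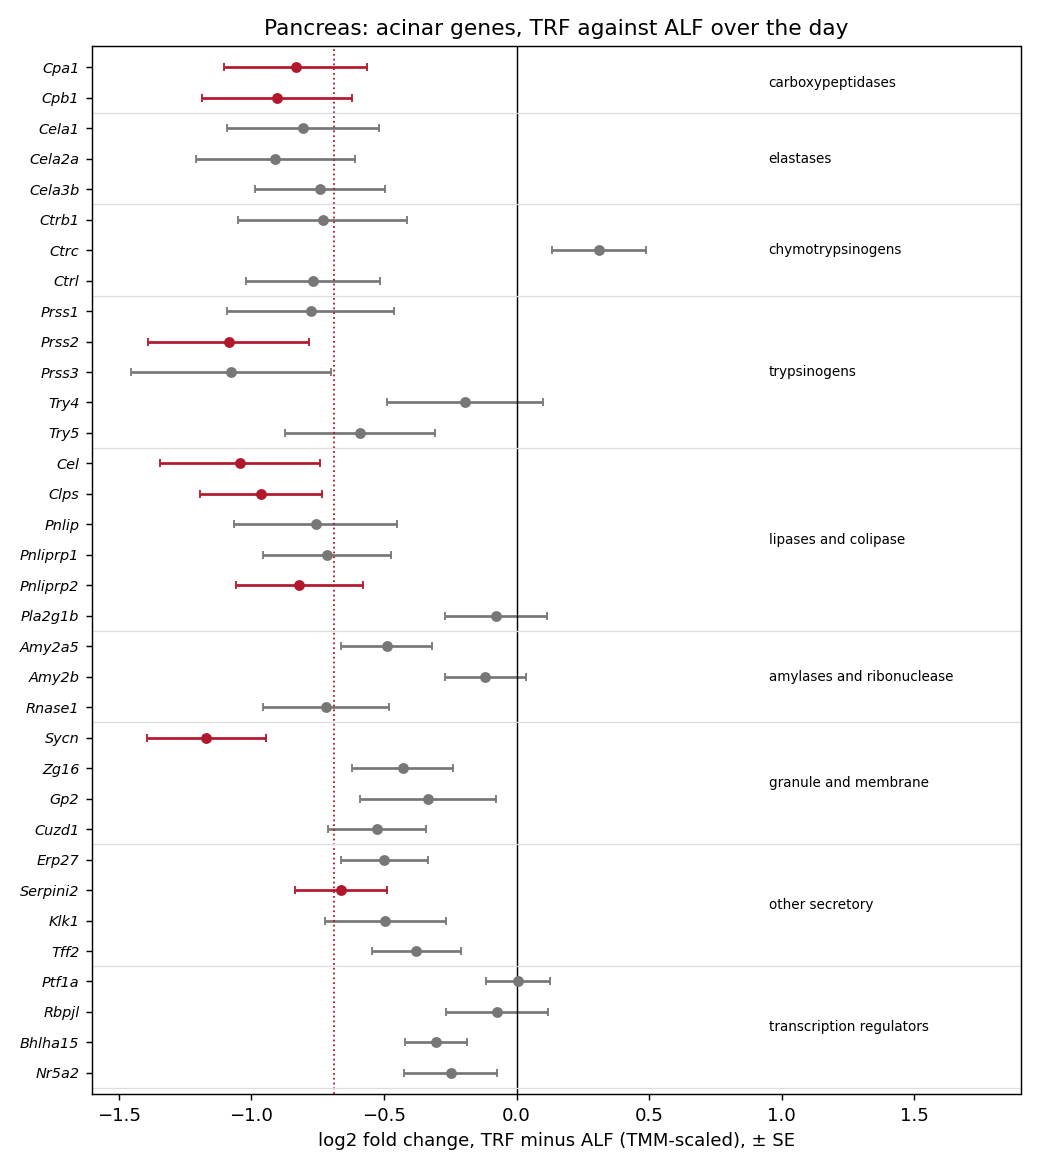
Log2 fold change of each member in pancreas, TRF minus ALF (x axis), with its standard error, grouped by role. Red points passed the adjusted threshold, the solid line marks 0 and the dotted line the members' median of -0.69; Sycn is lowest at -1.17 and Ctrc highest at 0.31.

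Among the proteases, both carboxypeptidases passed just inside the threshold. These enzymes trim amino acids from the carboxyl end of peptides. Cpa1 had a log2 change of -0.83 ± 0.27 (SE; adjusted p = 0.048, edgeR) and Cpb1 of -0.90 ± 0.28 (adjusted p = 0.040, edgeR). The TRF mean was below the ALF mean at 11 of 12 clock times for Cpa1 and at 12 of 12 for Cpb1. The call of Cpa1 was lost in 49 of 69 alternatives and that of Cpb1 in 30 of 69, and with library totals the changes were -0.28 and -0.36, both called. The 3 elastase genes had changes of the same size, -0.81 for Cela1, -0.91 for Cela2a and -0.74 for Cela3b, with adjusted p-values from 0.052 to 0.069 that missed the threshold. The chymotrypsinogens Ctrb1 (-0.73 ± 0.32, adjusted p = 0.14) and Ctrl (-0.77 ± 0.25, adjusted p = 0.052) did not pass either. Ctrc, whose product also degrades trypsinogen, stood at 0.31 ± 0.18 (adjusted p = 0.27).

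The trypsinogens, precursors of the protease that activates the others, had changes from -1.09 to -0.19. Prss2 fell by 1.09 on the log2 scale (SE 0.30, adjusted p = 0.024, edgeR), or 2.12-fold, after TMM scaling. In plain CPM, without TMM, the gap was smaller, with means of 37688 in ALF and 26358 in TRF. In CPM of the TMM-scaled library size (scaled CPM), Prss2 ran from 7803 through a median of 52284 to 147224 in ALF and from 5587 through 16343 to 87350 in TRF. The ranges overlap, and the lowest ALF library, at ZT0, lay below the TRF median. Try4 was at -0.19 ± 0.29 (adjusted p = 0.72), with a median of 20472 scaled CPM in ALF and 11521 in TRF and highest libraries at 78234 and 77767. The TRF mean of Try4 was below the ALF mean at 6 of 12 times, against 12 of 12 for Prss2. The difference between these 2 genes was not tested. Try5 (-0.59, adjusted p = 0.18), Prss1 (-0.78, adjusted p = 0.11) and Prss3 (-1.08, adjusted p = 0.066) lay between or beside them without passing.

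Of the 6 lipase and colipase genes, 3 fell, where 4.68% of all genes did. Cel, the bile salt-activated lipase, had a log2 change of -1.04 ± 0.30 (adjusted p = 0.029, edgeR). Its plain CPM means were 41344 in ALF and 29278 in TRF. Colipase, which anchors pancreatic lipase to fat droplets covered by bile salts, is encoded by Clps. It changed by -0.96 ± 0.23 (adjusted p = 0.012, edgeR), or 1.95-fold lower, and was lower in TRF at 12 of 12 times. In plain CPM the means of Clps were 24663 in ALF and 18978 in TRF. Clps ran from 6492 through a median of 38429 to 66731 scaled CPM in ALF and from 4821 through 13310 to 47410 in TRF. The upper quartile of the ALF libraries, 57563 scaled CPM, lay above every TRF library, while the lower parts of the ranges overlap. Pnliprp2, a lipase that also acts on galactolipids, changed by -0.82 ± 0.24 (adjusted p = 0.030, edgeR). Its plain CPM means were 2560 in ALF and 2159 in TRF. The main triglyceride lipase Pnlip (-0.76 ± 0.31, adjusted p = 0.11) and Pnliprp1 (-0.71 ± 0.24, adjusted p = 0.056) did not pass. Pla2g1b, the secreted phospholipase A2, was at -0.08 ± 0.19 (adjusted p = 0.84), with means of 1381 scaled CPM in ALF and 1267 in TRF.

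Sycn had the smallest p of all members. It encodes syncollin, a protein on the inner face of the zymogen granule membrane, and it changed by -1.17 ± 0.22 (adjusted p = 0.0028, edgeR), or 2.25-fold lower. In plain CPM the means of Sycn were 11720 in ALF and 7788 in TRF. Its level ran from 3268 through a median of 14215 to 40765 scaled CPM in ALF and from 1767 through 5281 to 25746 in TRF. At ZT2 the ALF libraries stood at 24619 and 15699 and the TRF libraries at 4044 and 3964, with no overlap. At ZT12 they stood at 14391 and 14669 in ALF and at 17130 and 12399 in TRF, which overlap. Serpini2, a serine protease inhibitor of the acinar cell, also fell (-0.66 ± 0.17, adjusted p = 0.017, edgeR). With library totals Serpini2 was at -0.12 and not called (adjusted p = 0.22), and its plain CPM means were 541 in ALF and 501 in TRF. Of the remaining granule and membrane genes, Cuzd1 was at -0.53 (adjusted p = 0.064), the granule lectin gene Zg16 at -0.43 (adjusted p = 0.14) and Gp2, the main granule membrane glycoprotein, at -0.33 (adjusted p = 0.43). Erp27, a protein of the endoplasmic reticulum (-0.50, adjusted p = 0.052), the tissue kallikrein gene Klk1 (-0.49, adjusted p = 0.16) and Tff2, a trefoil peptide (-0.38, adjusted p = 0.14), did not pass. Rnase1 was at -0.72 ± 0.24 (adjusted p = 0.053), Amy2a5 at -0.49 (adjusted p = 0.066) and Amy2b at -0.12 (adjusted p = 0.67).

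None of the 4 transcription regulators passed the test. Ptf1a was at 0.01 ± 0.12 (adjusted p = 0.98), with medians of 30.9 scaled CPM in ALF and 34.5 in TRF. Rbpjl was at -0.07 ± 0.19 (adjusted p = 0.85), Nr5a2 at -0.25 ± 0.18 (adjusted p = 0.39) and Bhlha15 at -0.30 ± 0.12 (adjusted p = 0.095). The direction of these genes hangs on the scaling: with library totals all 4 were positive, at 0.55 for Ptf1a, 0.39 for Rbpjl, 0.27 for Nr5a2 and 0.26 for Bhlha15, and Ptf1a and Bhlha15 were called higher together with Try4, Pla2g1b and Ctrc.

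The change was then split into the hours when TRF mice had no food (ZT0 to ZT12) and the later times (ZT14 to ZT22). Sycn was the 1 member called from ZT0 to ZT12 (-1.12 ± 0.29, adjusted p = 0.032, edgeR), where 2.64% of all genes were called. From ZT14 to ZT22, 0 members were called at a background of 0.183% (edgeR), with 6 at an unadjusted p under 0.05. The members' median was -0.72 in the first window and -0.60 in the second. The difference between the windows passed for 0 members (edgeR), with 0 at an unadjusted p under 0.05. For Prss2 the 2 windows gave -1.07 ± 0.39 and -1.12 ± 0.50. For Cuzd1 they gave -0.76 ± 0.23 and -0.16 ± 0.29, with a difference of 0.60 ± 0.37 (adjusted p = 0.73).

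The level of nearly all members differed between clock times, but few followed a 24 h wave by the test. With clock time as 12 separate levels, 32 of 34 members passed, or 94.1%, against 43.1% of all genes (edgeR). The exceptions were Amy2a5 and Amy2b. The members were read in the same libraries, whose summed share moved in steps, so these are not 32 separate results. Clock time and the day or handling of a collection cannot be told apart in them. With a cosine and sine of 24 h, 0 members passed in ALF, where 1.77% of all genes did, and 1 had an unadjusted p under 0.05 (edgeR). In TRF, 2 passed, Ptf1a and Amy2b, against 18.8% of all genes. In these fits, steps between clock times that a wave does not follow count as spread. The difference of rhythm between the groups passed for 0 members (edgeR), with 1 at an unadjusted p under 0.05. Core clock genes were rhythmic in the same libraries: all 13 of the list passed in ALF and all 13 in TRF.

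Ptf1a had the clearest daily course. Its log2 amplitude was 0.63 ± 0.13 in TRF with a peak at ZT19.7 ± 0.84 h (adjusted p = 0.0011, edgeR), and 0.43 ± 0.13 in ALF with a peak at ZT19.8 ± 1.1 h (adjusted p = 0.058). The test of the difference between the 2 rhythms gave an adjusted p of 0.90. Across groups its highest libraries were ALF at ZT18 (80.1 scaled CPM) and TRF at ZT22 (78.4), and its lowest TRF at ZT12 (14.2). Amy2b had an amplitude of 0.56 ± 0.16 in TRF (adjusted p = 0.0495) and of 0.03 ± 0.15 in ALF (adjusted p = 0.98), and the difference did not pass (adjusted p = 0.49). Amy2b no longer passed with a 12 h harmonic, DESeq2 size factors, library totals, either replicate left out or the earlier quasi-likelihood method of edgeR, and Ptf1a no longer passed without replicate 1. Fitted peaks of the enzymes lay near ZT8 in ALF, as for Cel at ZT7.8 ± 2.2 h with an amplitude of 0.65 ± 0.38 (adjusted p = 0.55), and such fits did not pass. Prss2 shows the steps behind this: its ALF libraries stood at 16886 and 12957 scaled CPM at ZT4, at 136357 and 118604 at ZT6, at 119132 and 147224 at ZT8, and at 15265 and 23686 at ZT10. The TRF libraries stood at 77303 and 40041 at ZT6, at 87350 and 28672 at ZT8 and at 13481 and 17164 at ZT10. Both groups were lower at ZT10 than at ZT8, with the TRF pair at ZT8 wide apart.

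Other genes that serve the acinar cell were read from lists. Of 14 other acinar secretory genes tested, 3 fell, where 4.68% of all genes did. They were the aquaporin gene Aqp12 (-0.81 ± 0.22), Tmed6, a cargo protein of the early secretory pathway (-0.93 ± 0.27), and Amy1 (-0.70 ± 0.21), with adjusted p-values from 0.021 to 0.033 (edgeR). The median of the 14 was -0.61, and with library totals Aqp12 and Tmed6 were still called lower and Amy1 was not. Without ZT0 and ZT18, Aqp12 was still called, and Amy1 (adjusted p = 0.10) and Tmed6 (0.084) were not. Of 13 genes for secretagogue receptors and granule exocytosis, 3 fell, at the same background of 4.68%. They were Rab27b (-0.41 ± 0.11) and Rab3d (-0.45 ± 0.13), small GTPases of zymogen granules, and the muscarinic receptor gene Chrm1 (-0.70 ± 0.22). With library totals Rab27b and Rab3d turned to 0.12 and 0.10 and Chrm1 was at -0.24 (adjusted p = 0.34), all without a call, and Chrm1 was not called without ZT0 and ZT18 either (adjusted p = 0.14). The cholecystokinin receptor gene Cckar did not pass (-0.20, adjusted p = 0.45).

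Of 24 genes for protein folding in the endoplasmic reticulum, 2 were called lower, where 4.68% of all genes were: Sel1l (-0.41 ± 0.12, adjusted p = 0.024, edgeR) and the stress sensor gene Atf6 (-0.40 ± 0.12, adjusted p = 0.027, edgeR). Both turned positive with library totals, at 0.12 each and without a call, and Atf6 was not called without ZT0 and ZT18 (adjusted p = 0.090). The 24 genes had a median of -0.18, and Creld2 (0.46) and Pdia4 (0.35) pointed the other way without passing. In the rhythm test 11 of the 24 passed in TRF, against 18.8% of all genes, and 1 in ALF, against 1.77%. Between the groups 0 differed (edgeR), with 0 at an unadjusted p under 0.05. Of 10 other regulators of acinar genes, 1 fell, at the same background of 4.68%. It was Hnf4a (-0.58 ± 0.14, adjusted p = 0.013, edgeR), which was at -0.06 and not called with library totals. These lists were chosen with earlier results of the data known.

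Markers of other cells in the pancreas were read beside these results. Of the 7 adipocyte markers, 2 were higher and 1 lower in TRF, where 8.10% of all genes were called in either direction. The higher ones were Cfd (1.91 ± 0.44, adjusted p = 0.0093, edgeR) and Fabp4 (0.74 ± 0.23, adjusted p = 0.041, edgeR). The lower one was the leptin gene Lep (-1.49 ± 0.42, adjusted p = 0.026, edgeR). The summed level of the 7 ran from 30.9 to 1541 CPM in ALF and from 81.1 to 5282 in TRF, and no listed marker was at 0 throughout. Of the 8 islet genes, 0 passed (edgeR), with 1 at an unadjusted p under 0.05, and the sums ran from 848 to 61961 CPM in ALF and from 1188 to 48289 in TRF. The duct marker Spp1 fell (-0.36, adjusted p = 0.045, edgeR), at a background of 4.68% of genes lower, and was at 0.15 with library totals. The other 5 duct markers did not pass. Without ZT0 and ZT18, Cfd was still called (adjusted p = 0.049) and Fabp4 (0.093), Lep (0.064) and Spp1 (0.12) were not. Of fibroblast (6), endothelial (4), lymphocyte (7), plasma cell (3) and erythroid (5) markers tested, 0 passed (edgeR), with 2 in all at an unadjusted p under 0.05, Dcn and Sdc1. On the CPM scale, without TMM, the summed markers had higher medians in TRF than in ALF: 580 against 298 CPM for fibroblasts, 273 against 170 for endothelium, 86.2 against 39.9 for lymphocytes, 80.3 against 36.3 for plasma cells and 468 against 212 for adipocytes. The medians of the islet (11701 against 8877 CPM), duct (269 against 194) and erythroid (1842 against 1554) sums were also higher in TRF. So were those of enterocyte (15.6 against 13.4 CPM) and gastric markers (2.97 against 2.05). The members' mean share of counts was lower in TRF at 12 of 12 clock times. On the CPM scale a lower share of the members raises other genes by arithmetic. With library totals the median log2 change of all genes was 0.46. Nothing about the number of other cells is read from these medians. The part of other cells in the acinar result was not tested.

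Of 5 listed genes of acinar injury and inflammation, 3 passed as lower, where 4.68% of all genes did, and Reg2 and Reg3b did not pass. The 3 were Reg3a (-1.71 ± 0.46, adjusted p = 0.021, edgeR) and Reg3g (-1.55 ± 0.43, adjusted p = 0.023), secreted lectins that acinar cells make in pancreatitis, and the chaperone gene Clu (-0.59 ± 0.14, adjusted p = 0.013). Single libraries were far above the rest, up to 194 CPM for Reg3a and 320 CPM for Reg3g. The median of Reg3a was 6.39 CPM in ALF and 2.94 in TRF, and that of Reg3g 11.3 and 5.78 CPM. Clu had medians of 509 CPM in ALF and 523 in TRF. With library totals Reg3a and Reg3g were still called, at -1.21 and -1.07, and Clu was not, at -0.08. Without ZT0 and ZT18 Reg3g and Clu remained called and Reg3a did not (adjusted p = 0.052).

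Outside the pancreas, several members had levels of their own. In the stomach Clps had a median of 28646 CPM and Pla2g1b of 20027 CPM, against 22012 and 1185 CPM in the pancreas, while Cpa1 had 25.97 CPM there. Tff2, a peptide of gastric mucous cells, had 3134 CPM in stomach and 2838 in duodenum. Zg16, also a product of intestinal goblet cells, had 3381 CPM in ileum, 2270 in jejunum and 1867 in duodenum. Klk1 had 1929 CPM in kidney cortex (KIC in the labels) and 649 in kidney medulla (KIM). Nr5a2, a regulator of bile acid and intestinal genes, had more in ileum (58.2 CPM), jejunum (45.2 CPM) and liver (45.0 CPM) than in pancreas (18.1 CPM). Rbpjl was above 10 CPM outside the pancreas in lung only, at 14.3 CPM.

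**Figure D3:**
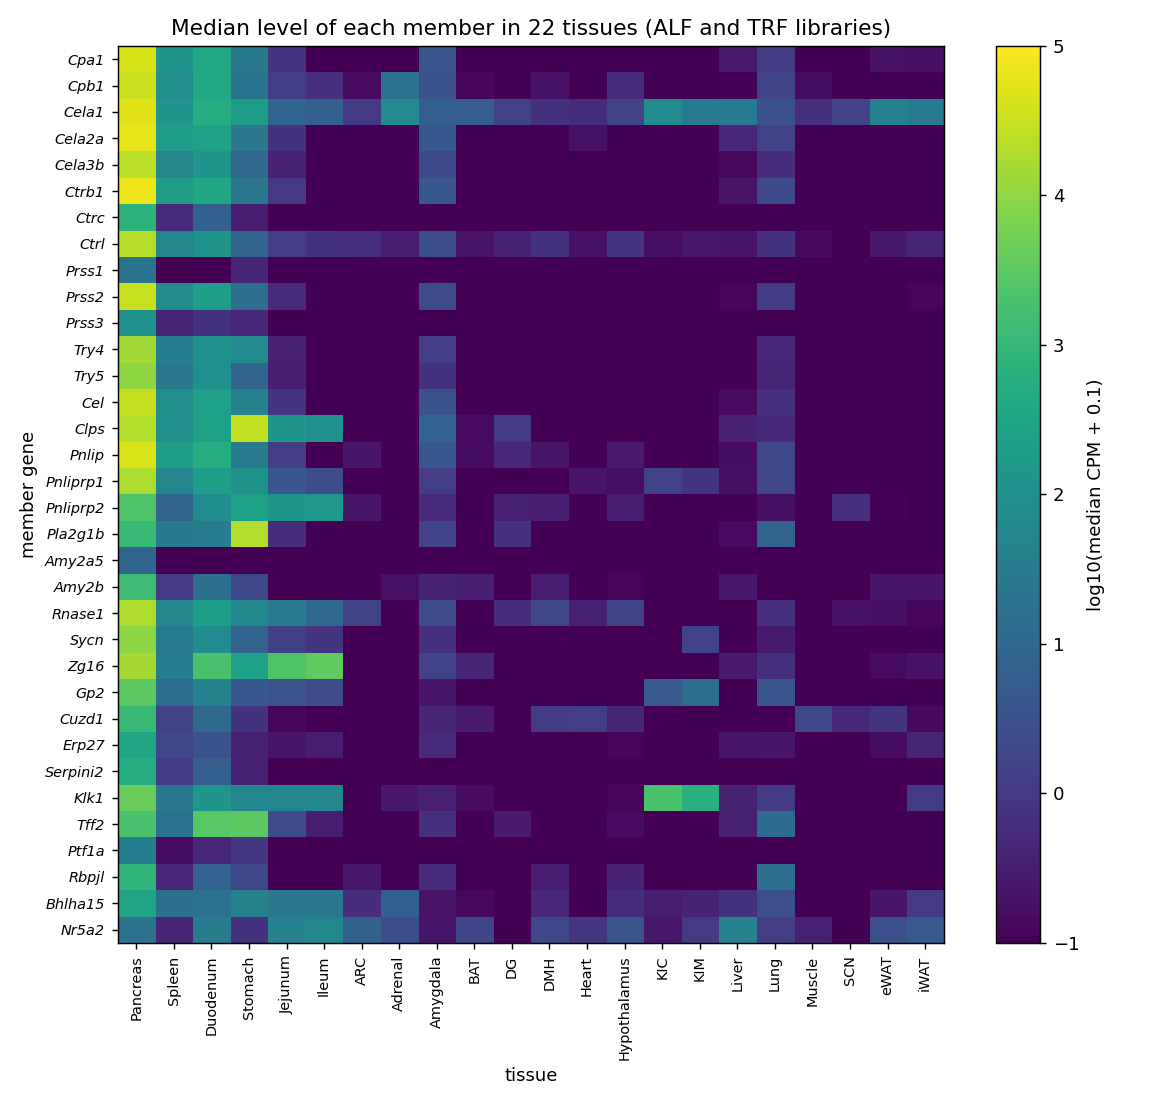
Median level of each member (rows) in each of 22 tissues (columns), as log10 of CPM plus 0.1, over ALF and TRF libraries. Clps and Pla2g1b in stomach, Zg16 in the intestine and Klk1 in kidney stand out from rows that are otherwise bright in pancreas and fainter in duodenum and spleen.

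TRF and ALF were compared in those tissues by the same test. Over the 21 other tissues, 204 pairs of a member and a tissue could be tested, and 20 passed, or 9.80%, against 20.6% of all genes in these tissues. Of the 20 pairs, 11 were higher and 9 lower in TRF. In 11 tissues 0 of 94 pairs passed (edgeR), with 10 at an unadjusted p under 0.05 and 0 called by DESeq2. Their backgrounds were wide apart: 32.6% of genes passed in hypothalamus, 32.5% in adrenal, 11.2% in spleen, 3.01% in kidney medulla, 2.54% in lung and 0.194% in the tissue labelled DG. In amygdala it was 0.00705%, in those labelled ARC (arcuate) and SCN 0.00708% and 0.00727%, and in BAT and DMH 0.00%. Cela1 fell from 68.3 ± 26.5 CPM (SD, n = 24) to 29.1 ± 18.03 (SD, n = 24) in the tissue labelled eWAT (adjusted p = 6.6e-06, edgeR) and from 58.0 ± 21.6 to 16.3 ± 7.81 (SD, n = 24 each) in that labelled iWAT (adjusted p = 3.4e-08, edgeR). In kidney cortex it fell from 88.6 ± 12.6 to 71.9 ± 17.1 (SD, n = 24 each; adjusted p = 0.0033, edgeR). The background was 59.9% of genes in eWAT, 66.6% in iWAT and 11.5% in kidney cortex, and the ranges of the groups overlap in all 3. Tff2 rose in stomach, from 2858 ± 1274 CPM to 4581 ± 2376 (SD, n = 24 each), a log2 change of 0.67 ± 0.20 (adjusted p = 0.013, edgeR), with a background of 25.5%.

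The jejunum had 7 member calls among 21 tested, or fewer than its background of 45.5% of all genes. Zg16 fell from 2437 ± 394 to 1997 ± 509 CPM (SD, n = 24 each; log2 change -0.34 ± 0.09, adjusted p = 0.0029, edgeR), and Rnase1 (-0.19) and Nr5a2 (-0.16) fell slightly. Sycn (0.64 ± 0.16, adjusted p = 0.0010), Prss2 (0.90 ± 0.32), Pnliprp2 (0.28 ± 0.11) and Bhlha15 (0.25 ± 0.08) rose. Sycn and Prss2 were low there, with medians of 1.30 and 0.44 CPM, and both are among the 10 enzymes whose sum over tissues is given next. The part of that sum in these 2 calls was not tested. Cuzd1 fell in heart (-0.60 ± 0.12, background 31.0%) and in muscle (-0.67 ± 0.14, background 29.2%). It was low in both, with a median of 1.85 CPM in muscle, against 1091 CPM in pancreas. Its median in heart was no higher than that in spleen, 1.58 CPM. Bhlha15 rose in liver (1.03 ± 0.37, background 21.1%) and iWAT (1.52 ± 0.28) and fell in ileum (-0.29 ± 0.09, background 9.98%). Klk1 rose in iWAT (1.43 ± 0.27).

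Enzymes that were near 0 in most other tissues appeared in spleen, duodenum, stomach and amygdala. To follow them, 10 members were taken whose median was at least 5000 CPM in pancreas and at most 2 CPM in each of the 17 tissues other than those 4 and pancreas: Cpa1, Cel, Cela2a, Cela3b, Ctrl, Prss2, Try4, Try5, Pnlip and Sycn. This choice was made after the values were seen. Their summed level had a median of 284645 CPM in pancreas. In spleen it ran from 9.49 to 99601 CPM over 44 libraries, and 28 lay above 100 CPM and 17 above 10000 CPM. The highest spleen library, TRF at ZT0, thus held 35.0% of the pancreas median. Its replicate at that time held 3606 CPM, and the ALF pair held 29.8 and 16327 CPM. High and low libraries stood side by side in both groups: the ALF median was 119 CPM and the TRF median 3606 CPM, with 10 of 23 and 11 of 21 libraries above 1000 CPM.

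**Figure D4:**
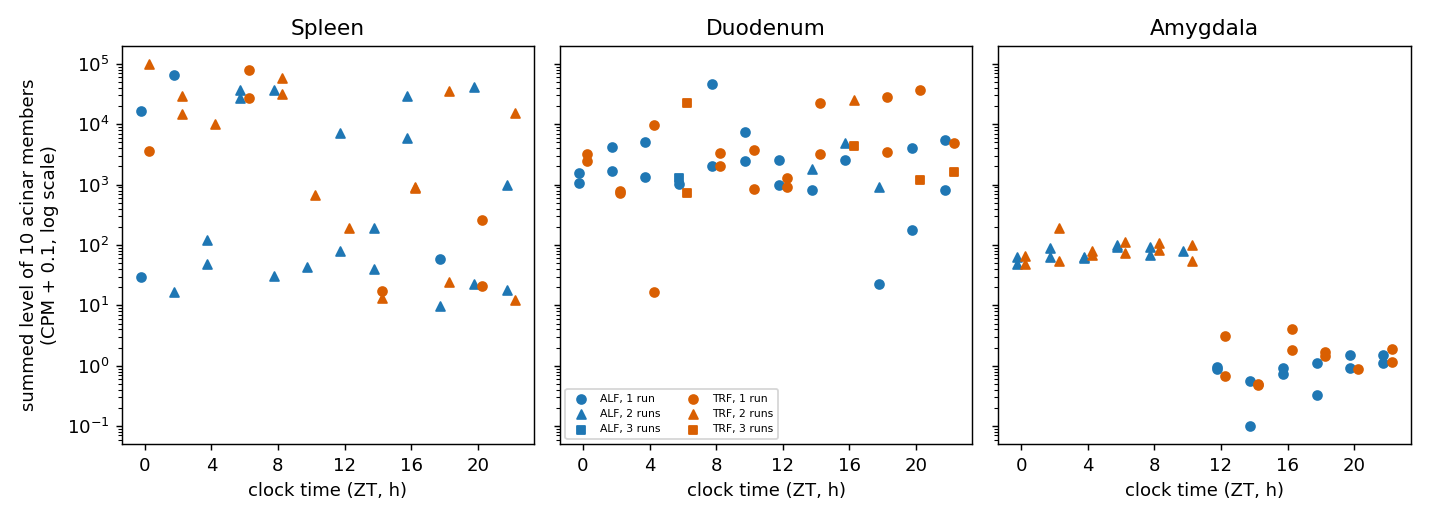
Summed level of the 10 members with medians of at most 2 CPM in the 17 remaining tissues, in CPM plus 0.1 on a log axis, against clock time in spleen, duodenum and amygdala, with 1 point per library, coloured by feeding group and shaped by the number of sequencing runs. Spleen libraries scatter from 9.49 to 99601 CPM, and amygdala libraries with 2 runs (ZT0 to ZT10) lie above those with 1 run (ZT12 to ZT22).

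The proportions among the 10 genes were mostly within 2-fold of those of pancreas in spleen and duodenum, and in stomach where the sum was high. In the 28 spleen libraries above 100 CPM, at least 8 and in the median all 10 of the genes held a share of the sum within 2-fold of the pancreas median. In the 46 duodenum libraries above 100 CPM it was at least 7 and in the median 10 genes, and in the 40 stomach libraries at least 2 and in the median 8.5. The 13 stomach libraries above 1000 CPM had 8 to 10 such genes, and the ALF library of 108 CPM at ZT12 had 2. By a stricter count, genes within the lowest to highest share of pancreas libraries, the medians were 7 in spleen, 7 in duodenum and 5 in stomach. In stomach Try4 had a median of 74.2 CPM and Prss2 of 14.7 CPM, the reverse of their order in pancreas (15084 and 30520 CPM). Ins2, the insulin gene of islet cells, stood at 6.55 CPM in the spleen library with the highest sum, and in pancreas it ran from 470.0 to 35900 CPM. In duodenum it stood at 174 CPM in the library with the highest sum (ALF, ZT8). An ALF duodenum library at ZT2 with a sum of 4183 CPM held 538 CPM of Ins2. In spleen, 30 members could be tested and 0 passed (edgeR, background 11.2%), with 1 at an unadjusted p under 0.05 and 0 called by DESeq2. The members' median log2 change was 0.98 there, with standard errors such as 1.43 for Cpa1 and 1.47 for Prss2.

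In duodenum the sum ran from 16.8 to 46809 CPM, 46 of 48 libraries lay above 100 CPM and 6 above 10000 CPM, 5 of these TRF and 1 ALF. The ALF median was 1742 CPM and the TRF median 3196 CPM. Of 31 members tested, 3 passed as higher in TRF, where 41.5% of all genes passed, and DESeq2 called 8. The 3 were Try4 (1.78 ± 0.72, adjusted p = 0.045, edgeR), Gp2 (1.35 ± 0.48, adjusted p = 0.021) and Pnliprp2 (0.88 ± 0.32, adjusted p = 0.023). Try4 ran from 1.05 through a median of 71.7 to 1567 CPM in ALF and from 0.82 through 208 to 2632 CPM in TRF. Without the 6 libraries above 10000 CPM the changes were 0.73, 0.61 and 0.37. Since these libraries were chosen by the level of such genes and 5 of them are TRF, a smaller change follows from the choice, and nothing is read from it. Over the second replicates alone, Try4 was at -0.24.

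In stomach the sum had a median of 256 CPM and a highest library of 27271 CPM. In amygdala it split by clock time and runs, which go together: the 23 libraries from ZT0 to ZT10, all sequenced in 2 runs, held 47.5 to 192 CPM, and the 23 from ZT12 to ZT22, all with 1 run, held 0 to 3.96 CPM. These sets do not overlap, each holds both feeding groups, and clock time and run number cannot be told apart. Elsewhere the median was at most 8.76 CPM, with single libraries far above it. The genes of the sum were chosen for low medians in those tissues. The low medians there, and their contrast with spleen, duodenum, stomach and amygdala, follow from that choice, and nothing is read from them. Above 100 CPM were an ileum TRF library at ZT4 with 2955 CPM, a BAT ALF library at ZT16 with 940 CPM, and liver libraries with 889 CPM (ALF, ZT8) and 399 CPM (TRF, ZT12). The others above 100 CPM held 223 CPM in lung (TRF, ZT18), 186 CPM in DG (TRF, ZT10), 144 CPM in muscle (ALF, ZT16) and 141 CPM in DMH (TRF, ZT8). Of the 989 libraries outside the pancreas, 125 lay above 100 CPM. The source of these counts was not tested.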

How the data were processed

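RNA of 22 tissues was sequenced from stranded poly(A) libraries on Illumina instruments, per the labels' protocols. Per the submitters' processing notes, CASAVA 1.8, FastQC 0.11.8, STAR 2.5.3a and HOMER 4.10 were used with mm10. The authors deposited 1 table of expected counts per gene, of which 29.62% are not whole, and these were rounded. It holds 1035 libraries from 1677 runs, 1 column and thus 1 replicate per library. How runs were combined is not given in the sources used here. Library totals ran from 2258507 to 500624930 counts, with a median of 11255700, and those of pancreas from 3864299 to 9088404. Their number of counts limits precision for low genes, and replicate spread includes counting error.

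Rows with a repeated name (4) were dropped. Each tissue was fitted with edgeR 4.0.16 (quasi-likelihood, filterByExpr, TMM, clock time as a factor beside feeding), with Benjamini-Hochberg adjustment over all genes tested and a threshold of 0.05. Window and rhythm tests used the same counts, with ZT0 to ZT12 against ZT14 to ZT22, or a 24 h cosine and sine in each group. Amplitudes and peaks came from limma 3.58.1. The fits were also run on simulated counts, in which genes changed by a set fold or followed a 24 h wave. Those counts held no steps between clock times and no share common to the members. They cannot show how the fits behave with such features. Alternatives were DESeq2 1.42.0, other scalings, no filter, GC offsets, a replicate block, libraries or times left out, and, chosen after seeing the data, the earlier quasi-likelihood method of edgeR, ZT0 and ZT18 left out together, and the duodenum without 6 libraries. The 34 members and the gene lists were chosen with earlier results of these data known. All 34 members passed the filter on low counts in pancreas and all were named. Of each other list, up to 4 genes with the smallest p were to be named, and Cckar, Creld2, Pdia4 and Ins2 were added after their values were seen. Replicate numbers were not treated as pairs. Over 10 clock times, the correlation of same-numbered deviations ran from -0.42 to 0.50 and was above 0.1 at 3. With 2 libraries per group and time, these values cannot settle whether the numbers pair samples. With the replicate number as a block, 1350 genes were called in pancreas in place of 1018.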

Additional observations from a re-analysis of the deposited data

How the results depend on the processing

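In pancreas, 0 members were called higher under every alternative except library totals. That scaling gave 8264 changed genes and 5 members higher. It turned the sign of Try4 (0.34), Pla2g1b (0.51), Zg16 (0.14), Gp2 (0.25), Bhlha15 (0.26), Rbpjl (0.39), Nr5a2 (0.27), Tff2 (0.19), Amy2b (0.42), Amy2a5 (0.058), Cuzd1 (0.033), Klk1 (0.075) and Erp27 (0.056). The count of members lower was 17 with the replicate number as a block, 14 with GC offsets and 14 with the earlier quasi-likelihood method. Without ZT0 and ZT18 it was 2, with 443 genes, and Try4 (0.10), Pla2g1b (0.050) and Ptf1a (-0.019) turned, the last also with GC offsets (-0.021). DESeq2 called 9 members lower, 4 of them among the original 8. Without the libraries of replicate 1 or of replicate 2, which leaves at most 1 library per group and time, 2 and 0 genes and 0 members passed. Without replicate 1, TRF had no library at ZT14 and ZT16. Over all sets left out, genes ran from 0 to 1799 and members lower from 0 to 19. The sign turned in some of these for Pla2g1b (-0.17 to 0.095), Ptf1a (-0.055 to 0.11), Rbpjl (-0.17 to 0.032) and Try4 (-0.31 to 0.096).

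For pancreas TRF versus ALF by window, leaving out ZT0 and ZT22 gave 511 genes from ZT2 to ZT12 and 3 for the difference. Library totals gave 6069 and 171 genes and 11 and 1 members, the replicate block 4 and 1 members and 81 genes in the later window, and the earlier quasi-likelihood method 2 members in the first. Without either replicate, 0 genes and 0 members passed in the windows. For rhythm, adding a 12 h harmonic gave 132 genes in ALF, 1247 genes and 1 member in TRF and 0 for the difference. Library totals gave 60, 470 and 2 genes, and DESeq2 size factors and the earlier method 1 member each in TRF. Without a replicate, ALF had 13 to 34 genes, TRF 70 to 1647 genes with 0 members without replicate 1, and the difference 0 to 2. In other tissues, no filter gave 40 members higher and 23 lower over all tissues, leaving out a replicate gave 4 to 9 higher and 3 to 5 lower, and Try4 in duodenum was at -0.24 without replicate 1 and at 2.92 without replicate 2. The cause of these shifts was not tested, beyond the smaller number of libraries where some were left out.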
